A study of Mus musculus with 12 samples.

Results

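The LIM homeodomain code of spinal motor neurons (MNs) was followed here in 9 genes, *Isl1*, *Isl2*, *Lhx1*, *Lhx3*, *Lhx4*, *Lhx5*, *Mnx1*, *Lmo4*, and *Ldb1*, out of 45777 genes listed in each library. The genes were chosen by name, and each was found by its NCBI Gene identifier, matched to a mouse symbol in RefSeq. Total RNA had been sequenced from the ventral spinal cord of mouse embryos at E12.5, when MNs have been born, trimmed around the *Hb9::GFP* reporter. The 12 libraries comprised 3 *Isl2* +/- (heterozygote) and 3 *Isl2* -/- (*Isl2* KO) libraries at the brachial level, and 3 of each genotype at the lumbar level. The heterozygotes, which carry 1 null allele, were the controls, and no wild-type library was among those analysed. *Hb9::GFP* is a transgene that labels MNs from the *Hb9* (*Mnx1*) promoter, but the tissue was trimmed by that label and not sorted, so each library also held interneurons, progenitors, and non-neural cells. Fewer cells of a type and less RNA per cell cannot be told apart in such bulk tissue.

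LIM homeodomain proteins are transcription factors with a pair of zinc-binding LIM domains, which bind protein partners, and a homeodomain, which binds DNA. Their combinations mark classes of spinal neurons and give motor columns distinct identities. In postmitotic MNs, Isl1 or Isl2 assembles with Lhx3 on the adaptor Ldb1, whereas Lhx3 bound to Ldb1 without an Islet protein acts in V2a interneurons. Lmo4 carries LIM domains but no DNA-binding domain and competes for Ldb1. In the deposited tables, on the mm10 (GRCm38) build, *Isl1* spans chr13:116298270-116309688, *Isl2* chr9:55538677-55547667, *Mnx1* chr5:29473823-29478470, *Lhx3* chr2:26200212-26208249, and *Lhx4* chr1:155698031-155751726. *Lhx1* spans chr11:84517975-84525534, *Lhx5* chr5:120431886-120441457, *Lmo4* chr3:144188530-144205255, and *Ldb1* chr19:46031525-46048145, with *Isl2* and *Lhx5* on the plus strand and the others on the minus strand.

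The null allele bears on what an *Isl2* value can show. It is described as a replacement of exons by a neomycin cassette, and a drawing of the locus places the cassette at the homeodomain exon and the exons after it. The exon numbers used here were matched to that drawing and rest on it. On the annotated main transcript of *Isl2* (6 exons, 1854 bases, GRCm38 plus strand of chromosome 9), exons 4 to 6 held 1210 bases, or 65.3%. Exons 1 to 3, which carry the start codon and both LIM domains, held 644 bases. With the exons placed so, a gene-level value sums kept and replaced sequence, and an *Isl2* value above 0 in a KO library does not go against its label.

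**Figure D1:**
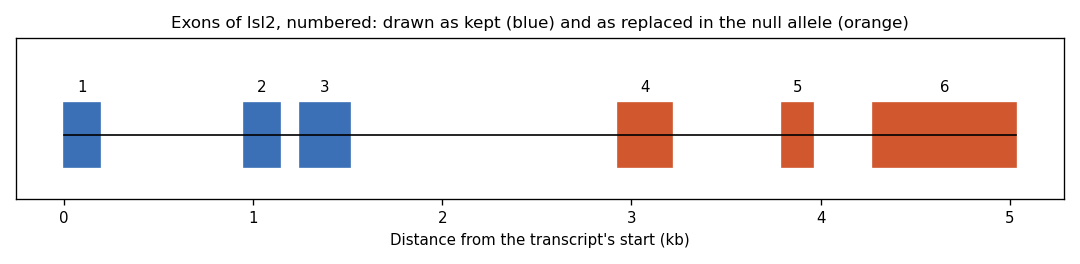
Exons of the main *Isl2* transcript, drawn to scale against distance from its start in kilobases. Exons 1 to 3 (blue, 644 bases) are those kept, and exons 4 to 6 (orange, 1210 bases) those replaced, as a drawing of the null allele places them.

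The exon that encodes the homeodomain, drawn as replaced in the null allele, is shown with its counterpart in *Isl1*, since Isl1 is the closest relative of Isl2 and its RNA was present in every library. Both exons are coding throughout and are written 5′ to 3′ on the strand of the gene, with capitals at bases that differ between the aligned exons.
Isl2 exon 4 (chr9:55544076-55544359, plus strand, GRCm38): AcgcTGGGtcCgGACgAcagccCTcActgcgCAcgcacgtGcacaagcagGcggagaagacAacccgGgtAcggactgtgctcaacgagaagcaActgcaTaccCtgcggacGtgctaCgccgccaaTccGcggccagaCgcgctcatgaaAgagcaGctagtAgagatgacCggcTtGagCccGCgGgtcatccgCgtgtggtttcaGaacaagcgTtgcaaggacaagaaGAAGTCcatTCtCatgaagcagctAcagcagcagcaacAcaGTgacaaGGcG
Isl1 exon 4 (chr13:116303046-116303332, minus strand, GRCm38): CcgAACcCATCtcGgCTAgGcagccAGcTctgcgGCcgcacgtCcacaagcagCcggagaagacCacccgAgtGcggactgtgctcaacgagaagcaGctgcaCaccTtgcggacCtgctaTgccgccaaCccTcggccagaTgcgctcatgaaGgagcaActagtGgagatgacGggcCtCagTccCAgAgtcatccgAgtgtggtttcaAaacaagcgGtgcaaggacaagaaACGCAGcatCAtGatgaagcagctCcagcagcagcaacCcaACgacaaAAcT
Over 284 aligned bases of this exon pair, 227 were identical (79.9%), and the longest stretch without a difference was 23 bases.

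Exon 2, which encodes the first LIM domain and is drawn as kept in the null allele, is marked the same way and shown because reads from kept exons would still count towards *Isl2* in KO libraries.
Isl2 exon 2 (chr9:55542100-55542289, plus strand, GRCm38): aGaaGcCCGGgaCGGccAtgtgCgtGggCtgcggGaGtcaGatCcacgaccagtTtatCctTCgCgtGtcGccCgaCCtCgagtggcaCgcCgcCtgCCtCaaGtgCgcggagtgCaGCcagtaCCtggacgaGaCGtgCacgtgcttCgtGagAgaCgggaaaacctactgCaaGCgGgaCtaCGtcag
Isl1 exon 2 (chr13:116308274-116308463, minus strand, GRCm38): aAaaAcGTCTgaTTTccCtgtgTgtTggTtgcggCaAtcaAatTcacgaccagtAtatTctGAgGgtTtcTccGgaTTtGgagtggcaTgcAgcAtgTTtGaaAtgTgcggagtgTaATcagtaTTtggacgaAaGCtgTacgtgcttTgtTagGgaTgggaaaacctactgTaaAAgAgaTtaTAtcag
Here 134 of 190 aligned bases were identical (70.5%). Over the whole coding sequences, identity was 73.0% for *Isl2* and *Isl1*, 70.8% for *Lhx3* and *Lhx4*, and 72.8% for *Lhx1* and *Lhx5*, with no identical stretch longer than 23 bases in the first pair and 20 bases in the other 2 pairs.

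Levels are given as TPM, an abundance that is corrected for gene length, scaled to a fixed total per library, and can be compared between genes. It was rescaled between libraries, because 5 abundant small RNAs took from 23.7% to 38.2% of the total. Values in the text are rescaled TPM, with mean ± SD and n = 3 libraries per group unless stated. The aligned bases of a library, obtained by dividing coverage by FPKM, ranged from 4.48 Gb (gigabases) in brachial KO library 3 to 6.64 Gb. The series counts 3 animals of each genotype, but the labels do not tie libraries to animals, and same-numbered brachial and lumbar libraries were of the same sex by *Xist* and Y genes in 3 of 6 cases. P-values measure the spread between these libraries.

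The co-factor *Ldb1* had the highest mean over the 12 libraries (76.9 ± 9.93, n = 12), followed by *Lmo4* (67.8 ± 10.6) and *Isl1* (56.9 ± 7.65). *Mnx1*, a homeodomain factor without LIM domains that is required to keep MNs from adopting interneuron features, averaged 48.4 ± 9.65, and *Lhx5*, a marker of several interneuron classes, 44.3 ± 5.90. *Lhx3* (25.9 ± 7.08), *Lhx4* (14.8 ± 2.75), and *Lhx1* (13.0 ± 5.36) were lower, and *Isl2* was the lowest of the 9 at 7.90 ± 1.65. The ranges over 12 libraries overlapped between each pair of neighbours in this order. *Lhx5* nevertheless exceeded *Lhx3* within each of the 12 libraries, as did *Lhx3* over *Lhx4*, and *Lhx1* exceeded *Isl2* in 10 of 12. *Ldb1* exceeded *Lmo4* in 8, *Lmo4* exceeded *Isl1* in 9, *Isl1* exceeded *Mnx1* in 9, *Mnx1* exceeded *Lhx5* in 8, and *Lhx4* exceeded *Lhx1* in 9 libraries. The order differed between groups. *Lmo4* ranked above *Ldb1* in brachial heterozygotes (81.2 and 73.0), *Isl1* above *Lmo4* in lumbar heterozygotes (64.8 and 61.2), *Lhx1* above *Lhx4* in brachial KO (16.2 and 15.5), and *Mnx1* above *Isl1* in lumbar KO (52.9 and 52.5). *Isl2* was the lowest in each group. The rank of *Ldb1* held for TPM only. Its coverage per aligned Gb, 16.7 to 21.1 over the 12 libraries, lay below that of *Lmo4* (22 to 34.1) and *Isl1* (22.9 to 34.3), and its mean coverage lay below those of *Mnx1* and *Lhx5* in each group.

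**Figure D2:**
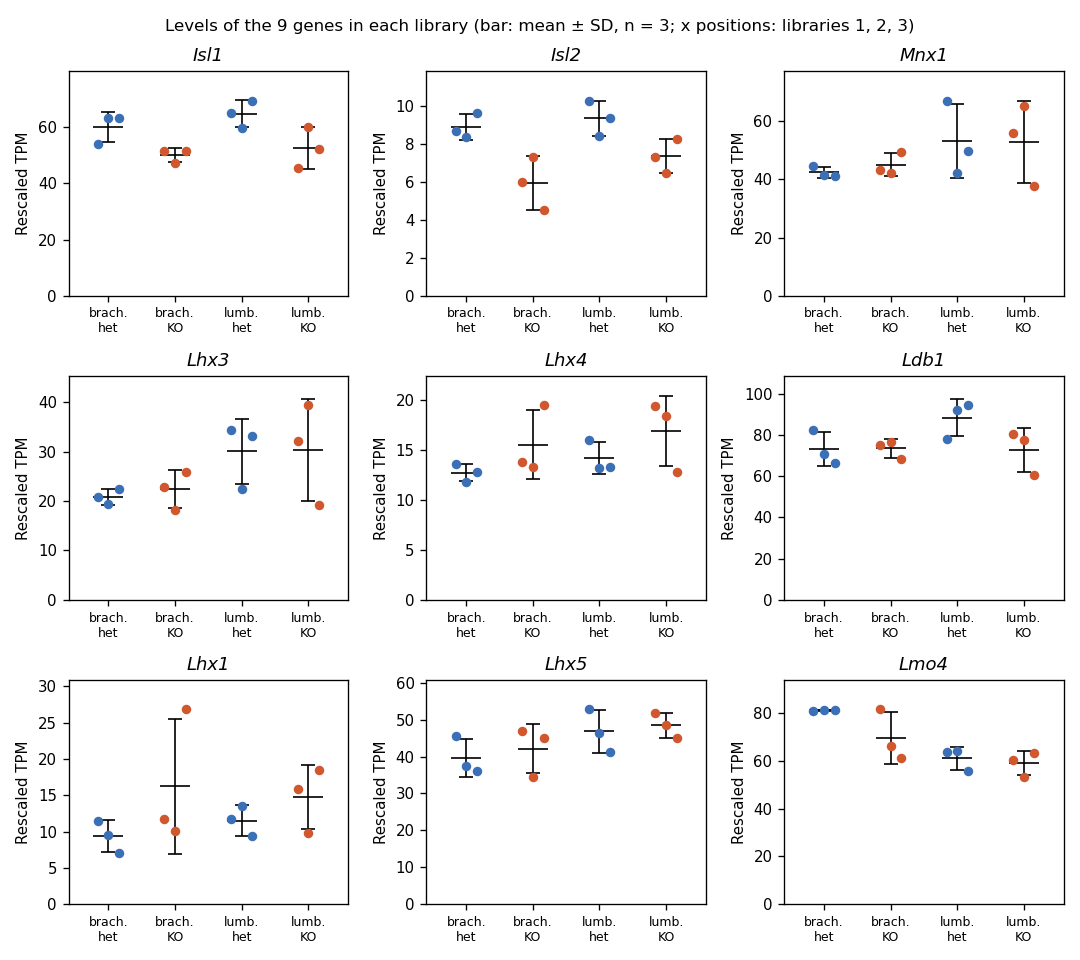
Rescaled TPM of the 9 genes in each library, with brachial (brach.) and lumbar (lumb.) heterozygotes in blue and KO in orange, points at libraries 1, 2, and 3 from left to right, and bars at the mean ± SD of 3 libraries. The *Isl2* KO points lie below the heterozygote points at each level, *Lmo4* is lower in the lumbar libraries, and 1 brachial KO library stands at 26.9 for *Lhx1*.

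Whether loss of *Isl2* changed its own RNA was asked first. At the brachial level, *Isl2* TPM was 8.71, 8.36, and 9.67 in the heterozygotes and 6.03, 7.34, and 4.52 in the KO libraries. All 3 KO libraries lay below the 3 heterozygotes. The mean went from 8.91 ± 0.677 to 5.96 ± 1.41, a log2 fold change of −0.60 (SE 0.18, limma, unadjusted p = 0.0114, adjusted p = 0.358). At the lumbar level, the heterozygotes had 10.3, 8.43, and 9.36 and the KO libraries 7.34, 6.49, and 8.27. These groups did not overlap either. The mean went from 9.36 ± 0.936 to 7.36 ± 0.891, a log2 fold change of −0.34 (SE 0.13, limma, unadjusted p = 0.0313, adjusted p = 0.997). A two-sided exact permutation test of 3 against 3 gave p = 0.1 at each level, the smallest it allows. The difference of the effects between levels was 0.25 on the log2 scale, with a 95% confidence interval from −0.25 to 0.76 (limma, adjusted p = 0.813). It ran from 0.07 without brachial KO library 3 to 0.41 without brachial KO library 2, and was 0.095 with TPM as deposited. No member passed in this test of the interaction, by an adjusted p of 0.05 or by an unadjusted one, beside 0% and 4.44% of 16736 genes.

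Coverage, the mean read depth over the bases of a gene, gave a larger difference for *Isl2*. Per aligned Gb, *Isl2* coverage at the brachial level was 2.81, 2.67, and 2.90 in the heterozygotes and 1.87, 2.14, and 0.922 in the KO libraries. In the lumbar cord it was 3.33, 2.66, and 2.68 in the heterozygotes and 1.57, 1.36, and 2.44 in the KO libraries. KO was again below heterozygote without overlap at both levels. The geometric mean in KO was 55.4% of that in heterozygotes in brachial cord and 60.5% in lumbar cord, against 66.1% and 78.8% for TPM. With coverage in place of TPM, the log2 fold change of *Isl2* was −0.82 in the brachial fit and −0.71 in the lumbar fit (limma, adjusted p = 0.374 and 0.974).

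The gap between these quantities was followed through the ratio of coverage to FPKM divided by the aligned Gb of the library. In these tables this ratio was 1 for the members with 1 RefSeq transcript (*Isl1*, *Lhx1*, *Lhx5*, and *Mnx1*). For genes with several transcripts it was at most 1. *Isl2* has 2 transcripts in RefSeq. Its ratio was 0.641, 0.633, and 0.598 in the brachial heterozygotes and 0.645, 0.631, and 0.578 in the lumbar heterozygotes. In KO it was 0.616, 0.570, and 0.424 in brachial cord and 0.424, 0.424, and 0.600 in lumbar cord. The ratio 0.4237 was shared to within 0.01% by 3 of the 6 KO libraries and by 0 of the 6 heterozygotes. Such a tie is not unusual in itself, as 934 of 2022 genes with 2 transcripts and an FPKM over 0.5 in all libraries (46.2%) had a ratio shared by 3 or more libraries.

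**Figure D3:**
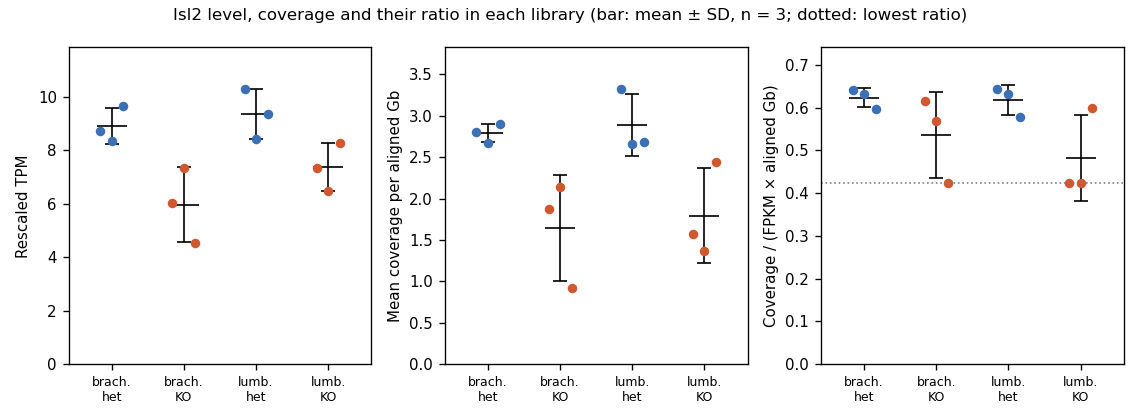
*Isl2* in each library as rescaled TPM (left), as mean coverage per aligned Gb (middle), and as the ratio of coverage to FPKM per aligned Gb (right), with heterozygotes in blue, KO in orange, and bars at the mean ± SD of 3 libraries. Coverage separates the genotypes further than TPM does, and 3 KO libraries sit on the dotted line at a ratio of 0.4237.

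On the log2 scale, the mean difference of the *Isl2* ratio, KO minus heterozygote, was −0.23 in brachial cord and −0.38 in lumbar cord. The exact permutation test gave p = 0.2 at each level, with 0.1 the smallest possible. A drop as large was seen in 28 of 9395 genes with several transcripts (0.298%) in brachial cord and in 9 of 9288 (0.0969%) in lumbar cord. Without brachial KO library 3, the brachial difference was −0.073. Among the other members with several transcripts, *Lhx3*, *Lhx4*, and *Lmo4* had log2 differences between −0.02 and 0.01 at both levels. *Ldb1*, with 6 transcripts, went the other way at the lumbar level, from a mean ratio of 0.443 to 0.530, a log2 difference of 0.26 (exact permutation test, p = 0.3), and stayed at 0.506 and 0.496 at the brachial level. Gene-level tables do not say which transcript carried the reads.

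*Isl1*, which is expressed as MNs leave the cell cycle and also in sensory neurons and dI3 interneurons, was compared next. Its TPM at the brachial level was 53.8, 63.3, and 63.1 in the heterozygotes and 51.5, 47.2, and 51.4 in the KO libraries. Every KO library lay below every heterozygote. At the lumbar level it was 65.2, 59.8, and 69.4 in the heterozygotes and 45.3, 60.1, and 52.1 in the KO libraries. Here KO library 2 lay within the heterozygote range. The log2 fold change was −0.26 (SE 0.086, limma, unadjusted p = 0.0169, adjusted p = 0.358) in brachial cord and −0.31 (SE 0.11, limma, unadjusted p = 0.0241, adjusted p = 0.997) in lumbar cord. Over all genes tested, an unadjusted p under 0.05 was reached by 13.9% in brachial cord and by 4.86% in lumbar cord, and among the 9 members by *Isl1* and *Isl2* at each level. With TPM as deposited, the brachial value of *Isl1* was −0.095 (limma, unadjusted p = 0.389, adjusted p = 0.67), and the unadjusted p of *Isl2* was 0.081 in brachial and 0.061 in lumbar KO (limma, adjusted p = 0.343 and 1.0).

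No member passed an adjusted p of 0.05 in the KO comparisons, in which 0.00590% of 16935 genes in brachial cord and 0% of 16511 genes in lumbar cord did (limma). A looser threshold, a log2 fold change beyond 0.5 in either direction with an unadjusted p under 0.05, was passed by *Isl2* at the brachial level only and by no member at the lumbar level. At the brachial level 0.827% of all genes were lower and 2.31% higher by this threshold, and in lumbar cord 0.781% and 0.981%. With TPM as deposited the brachial split was 47 lower and 1211 higher, and with quantile normalization 214 and 280, against 140 and 391 here. Without brachial KO library 3, which had the least depth, *Isl2* no longer passed (log2 fold change −0.41), nor did it with TPM as deposited (−0.43). KO libraries lay wholly below heterozygotes for 2 of the 9 members at the brachial level, *Isl1* and *Isl2*, and for 1 at the lumbar level, *Isl2*, and wholly above for 0 at either level. For all genes the shares wholly below were 10.2% and 5.45%, and wholly above 10.0% and 4.49%. By coverage per aligned Gb, *Isl1* also lay wholly below at the lumbar level (KO at most 29.84, heterozygotes at least 29.86). *Lhx4* then lay wholly above at the brachial level (KO at least 5.929, heterozygotes at most 5.922). Shares of all genes were not counted for coverage. The median log2 fold change of the 9 members was 0.08 in brachial cord and −0.02 in lumbar cord, beside medians near 0 over all genes (−0.0019 and −0.0057).

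Marker levels were read beside *Isl1* and *Isl2*. The summed TPM of 7 MN genes (*Chat*, *Slc18a3*, *Slc5a7*, *Prph*, *Slit2*, *Ret*, and *Gfra1*) ranged from 490 to 512 in brachial heterozygotes, 452 to 503 in brachial KO, 251 to 310 in lumbar heterozygotes, and 199 to 240 in lumbar KO. At the brachial level 2 of the 7 genes were lower in KO and 5 higher, and at the lumbar level all 7 were lower. Of all genes tested, 50.35% were lower in brachial and 51.67% in lumbar KO. In lumbar KO, 9 of 11 tested genes of a wider LIM list and all 3 V0 interneuron genes were lower too, whereas all 4 dI4 genes were higher. None of the 7 MN genes passed an adjusted p of 0.05 at either level (limma), and 1 and 3 of them had an unadjusted p under 0.05. *Prph*, an intermediate filament of peripheral neurons, passed the looser threshold at the lumbar level, with means of 61.7 in heterozygotes and 35.3 in KO. Of 4 genes listed for the lateral motor column, 3 had lower and 1 a higher fitted value in lumbar KO. The higher one was *Pou3f1* (0.038), or Scip, which the study used at lumbar levels to mark medial and hypaxial motor column neurons. *Etv4*, a motor pool factor, passed the looser threshold with means of 11.6 and 5.63 (log2 fold change −1.0, limma, adjusted p = 0.964). In brachial cord its means were 27.9 and 21.3 (log2 fold change −0.39, limma, unadjusted p = 0.00174, adjusted p = 0.358). Marker genes past it in the other direction were *Gata3* (0.72), of the V2b list, and *Nkx6-1* (0.65), of the MN progenitor list, in brachial KO, and *Ptf1a* (0.81), of the dorsal dI4 list, and *Hba-x* (0.69), an embryonic globin, in lumbar KO. All 4 erythroid genes had higher fitted values in KO at each level, none with an adjusted p under 0.05 (limma), and 0 and 1 of them had an unadjusted p under 0.05. Their sum ranged from 1449 to 2722 in brachial heterozygotes, 1994 to 4598 in brachial KO, 1409 to 2495 in lumbar heterozygotes, and 1909 to 3283 in lumbar KO. Among 7 sensory ganglion genes, whose sum was 13.3 to 18.3 in brachial heterozygotes and 12.6 to 18.8 in KO, *Runx3* and *Scn10a* were listed at 0 in all 12 libraries. In the lumbar cord that sum was 11.8 to 16.4 and 13.3 to 16.6. The 3 dI3 genes summed to 16.7 to 26.1 and 20.5 to 30.8 at the brachial level, and to 16.3 to 29.8 and 14.1 to 28.9 at the lumbar level, again in heterozygotes and KO. The part of these cell types in the *Isl1* and *Isl2* values was not tested.

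*Lhx3* and *Lhx4*, which act with the Islet proteins in medial MNs, were examined next. *Lhx3* TPM at the brachial level was 20.9, 19.3, and 22.5 in the heterozygotes and 22.9, 18.3, and 25.9 in KO, so the genotypes overlapped. At the lumbar level it was 34.4, 22.5, and 33.1 in the heterozygotes and 32.2, 39.4, and 19.3 in KO, where the spread within each genotype exceeded the difference of the means. The 95% confidence interval of its log2 fold change ran from −0.23 to 0.40 in brachial cord and from −0.64 to 0.59 in lumbar cord. *Lhx4*, which acts with *Lhx3* in ventrally projecting MNs, had 13.6, 11.8, and 12.8 in brachial heterozygotes and 13.8, 13.3, and 19.5 in brachial KO. The highest value came from KO library 3. Lumbar values were 16, 13.2, and 13.3 in the heterozygotes and 19.3, 18.4, and 12.8 in KO. The log2 fold changes of *Lhx4* were 0.27 (limma, adjusted p = 0.417) and 0.23 (limma, adjusted p = 0.999). The brachial value was 0.09 without KO library 3 and 0.43 with TPM as deposited, and the lumbar value was 0.42 without KO library 3 and 0.12 without KO library 1. *Mnx1*, whose promoter drives the reporter, went from 42.4 ± 1.92 to 45.1 ± 3.89 in brachial cord and from 53.1 ± 12.7 to 52.9 ± 14.1 in lumbar cord, with confidence intervals of the log2 fold change from −0.11 to 0.28 and from −0.53 to 0.51.

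*Lhx1*, which marks lateral motor column neurons that project dorsally in the limb and several interneuron classes, varied most among libraries relative to its mean. At the brachial level its TPM was 11.5, 9.48, and 7.07 in the heterozygotes and 11.7, 10.1, and 26.9 in KO. A single KO library, number 3, set the high mean of 16.2 ± 9.26, and the other KO libraries lay near the heterozygotes (9.36 ± 2.23). In the lumbar cord it was 11.7, 13.5, and 9.34 in the heterozygotes and 15.9, 9.87, and 18.5 in KO, with KO libraries 1 and 3 above the heterozygotes and library 2 among them. The log2 fold change was 0.68 (SE 0.36, limma, adjusted p = 0.394) in brachial cord and 0.32 (SE 0.24, limma, adjusted p = 0.999) in lumbar cord. Without brachial KO library 3 the brachial value was 0.24. By the looser threshold *Lhx1* passed at the brachial level without KO library 2 (0.94) and at the lumbar level without KO library 2 (0.59).

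The relative of *Lhx1*, *Lhx5*, did not show the high library. Its brachial values were 45.5, 37.4, and 36.1 in the heterozygotes and 46.9, 34.6, and 44.9 in KO, and its lumbar values 52.9, 46.5, and 41.2 against 51.9, 48.7, and 45.0. Genotypes overlapped at both levels, with confidence intervals of the log2 fold change from −0.24 to 0.40 and from −0.18 to 0.30. In brachial KO library 3, the summed TPM of the 3 V1 interneuron genes was 30.6 and of the 3 V0 genes 14.5. These were the highest of the 6 brachial libraries, the others reaching at most 26.1 and 10.7. The 3 V2b genes summed to 20.2 there, against at most 16 in the others. The library stood apart in other lists as well, with the highest brachial sums for 4 erythroid genes (4598, the others at most 2722), 2 V3 genes (11.2, the others at most 7.88), and the lateral motor column (208, the others at most 197). It was also the highest of the 6 for the dI3, floor plate, preganglionic, and MN progenitor lists and for *Mecom*. A non-coding RNA gene on the opposite strand, *Lhx1os*, lies 126 bases from *Lhx1* and averaged 97.5 TPM in brachial heterozygotes, more than *Lhx1* itself. Its value in brachial KO library 3 was 87.8, within the range of the other brachial libraries (70.2 to 110.5). The library kit was stranded, but whether the abundance estimate used strand was not given in the sources used here. The part of these cell types in the *Lhx1* value was not tested.

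The LIM-only factor and the adaptor completed the set. *Lmo4* at the brachial level was 80.9, 81.2, and 81.4 in the heterozygotes and 81.8, 66.1, and 61.2 in KO, so that KO library 1 matched the heterozygotes and the other 2 lay below (log2 fold change −0.23, SE 0.11, limma, adjusted p = 0.365). That value was −0.065 with TPM as deposited, −0.35 without KO library 1, and −0.14 without KO library 3. At the lumbar level it was 63.8, 64.1, and 55.7 against 60.6, 53.4, and 63.3, with overlap. *Ldb1* went from 73.0 ± 8.20 to 73.5 ± 4.47 at the brachial level. In the lumbar cord its TPM was 78.1, 92.3, and 94.5 in the heterozygotes and 80.4, 77.3, and 60.5 in KO, with overlap and a log2 fold change of −0.29 (SE 0.12, limma, adjusted p = 0.997). Its coverage per aligned Gb did not follow, at 98.1% of the heterozygotes in lumbar KO, beside 82.1% for TPM.

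**Figure D4:**
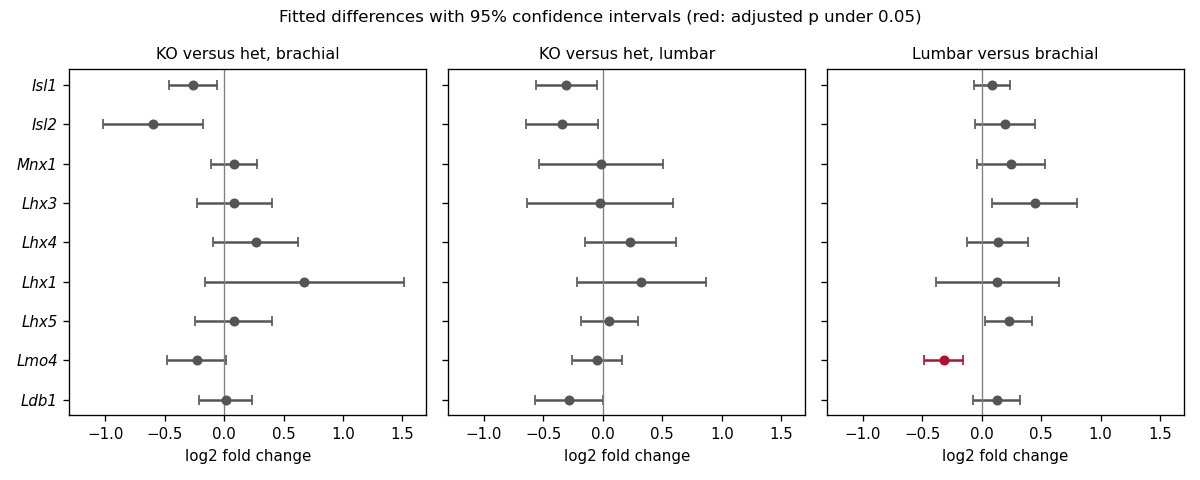
Log2 fold changes of the 9 genes from limma with 95% confidence intervals, for KO against heterozygote at the brachial level (left), at the lumbar level (middle), and for lumbar against brachial libraries with genotype in the model (right). *Lmo4* in the right panel is the one point with an adjusted p under 0.05, and the widest interval is that of *Lhx1* at the brachial level.

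How the code differed along the cord was asked in a fit to all 12 libraries that also held genotype. Of the 9 members, 1 passed an adjusted p of 0.05 (limma), beside 18.9% of 16736 genes tested (10.1% with lower and 8.77% with higher lumbar levels). An unadjusted p under 0.05 was reached by 3 members, beside 32.4% of all genes. With TPM as deposited, 2214 genes were called lower and 646 higher, against 1694 and 1467 here. The member called was *Lmo4*, at 75.4 ± 9.27 in the 6 brachial and 60.1 ± 4.57 in the 6 lumbar libraries, a log2 difference of −0.32 (SE 0.075, limma, adjusted p = 0.0115). *Lmo4* stood at 80.9 to 81.4 in brachial and 55.7 to 64.1 in lumbar heterozygotes. Of the 3 brachial KO libraries, 2 (66.1 and 61.2) lay near or within the lumbar range of 53.4 to 64.1. In the KO libraries alone the difference was −0.23 and did not pass (limma, adjusted p = 0.299), and in the heterozygotes alone it was −0.41 (limma, adjusted p = 0.0268). The interaction with genotype was 0.18, with a 95% confidence interval from −0.14 to 0.50.

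The other 8 members had fitted differences above 0, as had 8526 of the 16736 genes tested, and none of the 8 passed the adjusted threshold. With TPM as deposited, those of *Isl1*, *Lhx1*, and *Ldb1* were below 0, as were 12319 of the 16736. *Lhx3* averaged 21.6 ± 2.76 in the 6 brachial and 30.2 ± 7.68 in the 6 lumbar libraries (log2 difference 0.44, SE 0.16, limma, adjusted p = 0.0774). Brachial values stayed between 18.3 and 25.9, whereas 4 lumbar libraries stood at 32.2 or above and the other 2 at 22.5 and 19.3. *Lhx3* passed when lumbar heterozygote library 2 (0.53) or lumbar KO library 3 (0.58) was left out, and *Mnx1* (0.25, limma, adjusted p = 0.213) passed without the latter (0.35). *Lhx5* had means of 40.9 ± 5.46 and 47.7 ± 4.39 (0.23, limma, adjusted p = 0.0995). The remaining differences were 0.19 for *Isl2*, 0.13 for *Lhx4*, *Lhx1*, and *Ldb1*, and 0.09 for *Isl1*. The median over the members was 0.13, beside 0.0055 over all genes.

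Cell type markers differed between the levels too. *Prph* averaged 310 and 262 in brachial and 61.7 and 35.3 in lumbar heterozygotes and KO (log2 difference −2.62, limma), and *Slc5a7*, the choline transporter, was also lower at the lumbar level (−1.10). These were the 2 of 7 MN genes called. Of the 7 fitted differences, 4 were below 0 and 3 above, the latter being *Ret* (0.36), *Slit2* (0.21), and *Chat* (0.16), none of which passed an adjusted p of 0.05 (limma). Among genes of V2a interneurons, a class that also expresses *Lhx3*, *Vsx1* (0.91) and *Shox2* (0.33) were called higher at the lumbar level. Lists of other cell types held calls in both directions. Lower at the lumbar level were *Olig2* (−0.74), of MN progenitors, *Runx1* (−2.59), of the sensory list, *Erbb3* (−1.65), of the neural crest list, *Csf1r* (−1.0) and *Cx3cr1* (−0.83), of microglia, and *Kdr* (−0.37), of endothelium. Higher were *Nkx6-1* (0.89), of MN progenitors, *Sim1* (0.59), of V3 interneurons, *Pax8* (0.47), of the dI4 list, and *Zeb2* (0.22), of the preganglionic list. By fitted difference, the V3 list held 1 gene below and 1 above 0, and the dI4, sensory, and neural crest lists 2 and 2 each. Of the 2 preganglionic genes, only 1 was high enough to be tested. *En1*, 1 of 3 V1 genes, was called higher as well (0.79). All 4 genes listed for the lateral motor column had negative fitted differences, and *Aldh1a2* (−0.50) and *Etv4* (−1.60) were called. *Mecom*, a medial motor column factor, was lower (−0.46). The part of these cell types in the values of the members was not tested.

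The balance of related genes was examined as log2 ratios of TPM within a library, which rescaling does not alter. *Isl2* amounted to 0.162, 0.132, and 0.153 of *Isl1* in brachial heterozygotes and to 0.117, 0.155, and 0.0879 in brachial KO. In lumbar libraries the ratios were 0.158, 0.141, and 0.135 in heterozygotes and 0.162, 0.108, and 0.159 in KO, with KO libraries 1 and 3 above the highest heterozygote. The log2 difference between genotypes was −0.34 in brachial cord and −0.04 in lumbar cord. Without brachial KO library 3 the brachial value was −0.14, without KO library 2 it was −0.55, and with coverage in place of TPM it was −0.58. The lumbar value was 0.15 without KO library 2 and −0.42 with coverage. For *Lhx3* to *Lhx4*, the geometric mean ratio was 1.64 in brachial heterozygotes, 1.45 in brachial KO, 2.09 in lumbar heterozygotes, and 1.75 in lumbar KO. For *Lhx1* to *Lhx5* it was 0.232, 0.352, 0.244, and 0.295 in the same order, and brachial KO library 3 stood at 0.599. Without that library its brachial log2 difference went from 0.60 to 0.22. The lumbar one, 0.27, was 0.03 without KO library 3 and 0.54 without KO library 2. Over these 6 comparisons of KO with heterozygote, the exact permutation p ranged from 0.2 to 1, and the adjusted p from 0.45 to 1. Between levels, the *Lhx3* to *Lhx4* ratio was 1.54 in brachial and 1.91 in lumbar libraries, a log2 difference of 0.31 (exact permutation test within genotypes, 400 arrangements, p = 0.03, adjusted over 3 ratios p = 0.09). The other 2 ratios differed by 0.11 and −0.09 between levels (exact permutation p = 0.54 and 0.72, adjusted p = 0.72 for both).

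**Figure D5:**
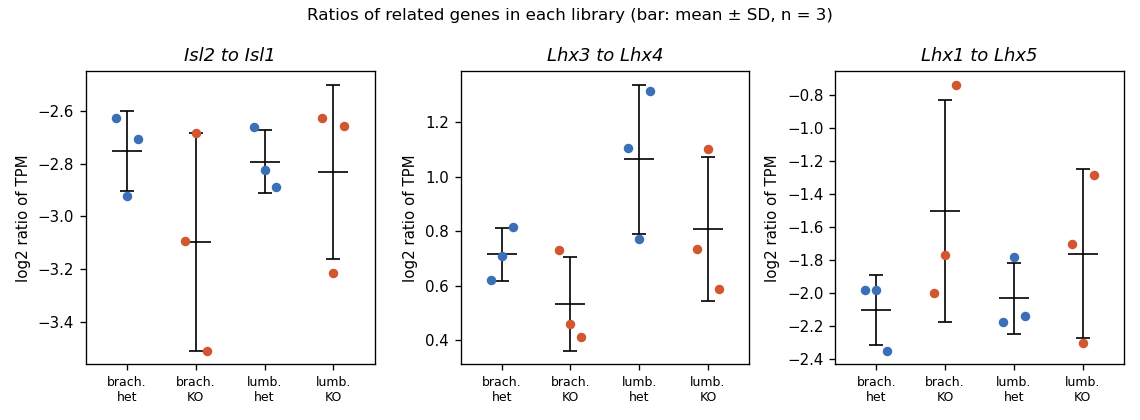
Log2 ratios of TPM for the pairs *Isl2* to *Isl1* (left), *Lhx3* to *Lhx4* (middle), and *Lhx1* to *Lhx5* (right) in each library, with heterozygotes in blue, KO in orange, and bars at the mean ± SD of 3 libraries, each panel on its own scale. In each panel the genotypes overlap at both levels, and the lumbar *Lhx3* to *Lhx4* ratios reach 2.49, above the brachial maximum of 1.76.

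Members were also compared by how their levels varied over the libraries once the mean of each level was removed. These correlations run over 12 libraries that share genotype, depth, and tissue trimming, and are given as descriptions. *Lhx3* and *Mnx1* varied together (r = 0.90), as did *Lhx4* and *Mnx1* (0.73) and *Lhx3* and *Lhx4* (0.69). *Isl1* and *Isl2* had r = 0.53. The lowest values were those of *Isl2* with *Lhx4* (−0.72) and with *Lhx1* (−0.69). Within the 6 brachial and the 6 lumbar libraries, *Isl2* and *Lhx4* had r = −0.86 and −0.55, whereas *Isl2* and *Lhx1* had −0.91 and −0.09. Among 12569 protein-coding genes, those most like *Mnx1* were *Slc18a3* (0.95), the vesicular acetylcholine transporter, *Islr2* (0.94), and *Ralgds* (0.93). *Lhx3* was most like *En1* (0.96), *Mknk2* (0.93), and *Islr2* (0.93). *Isl1* was most like *Ntf3* (0.93), the gene of neurotrophin-3, then *Spin2c* (0.92) and *Stx18* (0.91). *Isl2* was most like *Cisd1* (0.94), *Cdo1* (0.94), and *Fabp3* (0.94), *Lhx1* like *Eif4ebp2* (0.98), *Scrt2* (0.97), and *Slc29a3* (0.97), and *Lhx4* like *Zfp516* (0.94), *Ptpn1* (0.94), and *Scube3* (0.93). *Lhx5* was most like *Ddr1* (0.90), *C1qbp* (0.90), and *Sox1* (0.89), *Lmo4* like *Psme1* (0.91), *Tcaim* (0.91), and *2300009A05Rik* (0.90), and *Ldb1* like *Cyc1* (0.85), *Nudt16l1* (0.83), and *Etfb* (0.83).

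The wider LIM family was read from 14 further genes, LIM homeodomain factors, LIM-only proteins, and the Ldb, Ssbp, and Rlim co-factors, of which 11 passed the expression filter. In the KO comparisons 0 of 11 passed an adjusted p of 0.05 at either level (limma), and 1 at the brachial level (*Rlim*) and 2 at the lumbar level (*Lmo1* and *Lmo2*) had an unadjusted p under 0.05, beside 13.9% and 4.86% of all genes. *Ssbp3*, which stabilises Ldb1 complexes, had the highest mean (112.9), then *Rlim* (62.1), a ubiquitin ligase that targets Ldb1, and *Ssbp4* (44.5). Between levels, 2 of 11 were called, a share near the 18.9% of all genes, and both were higher at the lumbar level. *Lhx9*, a factor of dorsal interneurons, had 2.33, 2.42, and 2.2 in brachial and 4.78, 4.56, and 3.81 in lumbar heterozygotes, and 1.89, 2.43, and 1.90 in brachial and 4.22, 2.99, and 5.89 in lumbar KO. The log2 difference between levels was 0.94 (SE 0.15, limma, adjusted p = 0.00141). The dI1 interneuron genes *Barhl1* (−0.92, limma, adjusted p = 0.0162) and *Barhl2* (−0.97, limma, adjusted p = 0.0202) were called lower at the lumbar level. The LIM-only gene *Lmo1* went from 22.7 ± 1.69 to 28.0 ± 0.838 in heterozygotes and from 20.2 ± 1.54 to 23.4 ± 0.502 in KO (0.26, SE 0.054, limma, adjusted p = 0.00583). *Lmx1a*, *Lhx6*, and *Lhx8* stayed under a mean of 0.5 TPM.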

How the data were processed

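Total RNA libraries of the ventral spinal cord were taken from their titles as brachial or lumbar and as control or mutant, 3 per group. By the study's design, the controls were read as *Isl2* +/- and the mutants as *Isl2* -/-. Per the labels, the authors used Trimmomatic 0.38, HISAT2 2.1.0, Bowtie2 2.3.4.1, and StringTie 2.1.3b, with mm10 as the build. The deposited TPM values are scaled by the authors to a fixed total per library, the deposited FPKM values to gene length and mapped fragments, and the deposited coverage values are the mean read depth over the bases of a gene. No counts were analysed here, so a count test was not run, and TPM was tested with limma.

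The tables list 45777 NCBI identifiers, and 45679 were matched to RefSeq symbols (GRCm38.p6). Values of 6 identifiers on more than 1 line were summed. Size factors (median of ratios) were applied to TPM. After adding 0.1 and taking log2, limma 3.58.1 in R 4.3.3 was run with a trended eBayes prior on the genes whose mean TPM reached 0.5. Fold changes are on this scale and understate changes of low genes. KO and heterozygote were compared in the 6 libraries of a level, and lumbar with brachial, and the interaction, in all 12. P-values were adjusted by the Benjamini-Hochberg method over all genes tested and measure the spread between libraries. Counting error cannot be read from these units. Single values and ratios were compared with two-sided exact permutation tests in Python 3.11.15. Alternatives were other pseudocounts, filters, scalings, fits, and units, and leaving out each library. Exons and sequences came from GENCODE M21 (GRCm38), whose *Isl2* exons need not be those the tables used. Genes named by rule beyond the 9 members were LIM family genes that passed an adjusted p of 0.05, the 3 of highest mean, marker genes that passed it, and the 3 genes most like each member by Pearson correlation among protein-coding genes whose mean TPM reached 1. Other genes were named after their values were seen: those of the MN list, LIM family genes with an unadjusted p under 0.05 in a KO comparison or a mean under 0.5, marker genes past the looser threshold or at 0, and *Lhx1os*, 1 of the genes within 10 kb of a member. *Pou3f1* was also named after its values were seen. A marker gene, with the list values that hold it, is not reported here. The members, lists, and tests were chosen with earlier results of these data known.

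Replicate numbers were not taken to pair libraries, and a fit with the number as a block was an alternative.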

Additional observations from a re-analysis of the deposited data

How the results depend on the processing

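No member passed an adjusted p of 0.05 in the KO comparisons or the interaction under any alternative run. The log2 fold change of *Isl2* stayed negative throughout, from −0.76 to −0.41 at the brachial and from −0.43 to −0.26 at the lumbar level when each library was left out, and from −0.82 to −0.43 and from −0.71 to −0.31 under the other alternatives. By the looser threshold, 0 to 2 members passed at the brachial level (0 without KO library 3, 2 without KO library 2) and 0 to 1 at the lumbar level as libraries were left out, and 1 (*Isl2*) passed at the lumbar level with coverage in place of TPM. With TPM as deposited, the 1 brachial member past that threshold was *Lhx1* (0.84) rather than *Isl2* (−0.43), and the median over all genes moved to 0.16. Leaving out libraries, 146 to 1116 genes were higher and 109 to 309 lower in brachial KO by that threshold, and 137 to 312 and 101 to 189 in lumbar KO.

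Between levels, 1 to 3 members were called as libraries were left out. Of all genes, 1151 to 1896 were then called lower and 938 to 1699 higher, with 16626 to 16777 tested. In the KO libraries alone 0 members were called, beside 164 genes lower and 136 higher of 16918. In the LIM list 2 to 3 of 11 genes were called without single libraries and 0 in KO alone, beside the same counts of all genes. With TPM as deposited 1 was called, beside 2214 genes lower and 646 higher of 16736. With quantile normalization 4 were called, beside 1754 and 1487. In heterozygotes alone 1 was called, beside 329 and 162 of 16551 genes. The cause was not tested.

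Values near 0 changed sign. With coverage in place of TPM, *Ldb1* at the brachial level was −0.0198. With TPM as deposited, the difference between levels was −0.047 for *Isl1*, −0.00051 for *Lhx1*, and −0.0081 for *Ldb1*, and in KO alone −0.044 for *Lhx1* and −0.024 for *Ldb1*. Without single libraries the brachial KO effect ran from −0.028 to 0.22 for *Lhx3*, −0.0019 to 0.22 for *Lhx5*, and −0.053 to 0.10 for *Ldb1*. The lumbar effect ran from −0.24 to 0.27 for *Lhx3*, −0.033 to 0.15 for *Lhx5*, −0.18 to 0.21 for *Mnx1*, and −0.12 to 0.020 for *Lmo4*. The ratio of *Isl2* to *Isl1* in lumbar KO ran from −0.14 to 0.15, and was −0.42 with coverage. In brachial KO it ran from −0.55 to −0.14. The ratio of *Lhx3* to *Lhx4* ran from −0.28 to −0.12 in brachial and −0.40 to −0.13 in lumbar KO, and that of *Lhx1* to *Lhx5* from 0.22 to 0.85 and 0.03 to 0.54. The difference of *Isl2* coverage per FPKM ran from −0.34 to −0.073 in brachial and −0.54 to −0.29 in lumbar KO. Between levels, the ratio of *Lhx1* to *Lhx5* ran from −0.22 to 0.098, and that of *Lhx3* to *Lhx4* from 0.24 to 0.38 with an exact permutation p over 0.05 when any 1 of 6 libraries was left out.

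Same-numbered heterozygote and KO libraries deviated from their group means with correlations of 0.109, 0.303, and 0.0615 in brachial and 0.155, −0.3, and −0.112 in lumbar cord. For same-numbered brachial and lumbar libraries these were −0.0491, 0.287, and 0.476 in heterozygotes and 0.0258, −0.256, and 0.0723 in KO. With the replicate number as a block, the log2 fold change of *Isl2* was −0.60 at the brachial level (limma, adjusted p = 0.362), and no call of a member changed. Without counts, the part of depth in these values cannot be given.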
